A study of Bos grunniens with 18 samples.

Results

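N6-methyladenosine (m6A) is a methyl mark placed on messenger RNA, and the adenosines described here are the 1597 candidate m6A positions that the deposited lists of all 3 epididymal regions carry and that were selected on their highest combined prediction score, which had to lie in the class the authors call very high. They were taken from 143390 distinct positions listed in any region, of which 65697 were listed in caput, corpus and cauda alike, so they made up 2.43% of the positions shared by all regions (95% Wilson interval, 2.32 to 2.55%). In numbers, the score had to be above 0.675, the highest value outside that class. The study mapped m6A by antibody enrichment of fragmented poly(A)-selected RNA (MeRIP-seq) along the epididymis of healthy yaks, in the caput, the corpus and the cauda, the successive stretches of the duct behind the testis. The animals were adult males aged 4 years, 6 in all, none treated, and each region was represented by 3 antibody-enriched and 3 input libraries, 18 libraries in total. No label ties a library to an animal. The lists and the comparison tables hold 1 value per position or site and none per library, so no error between animals can be given here and the depth behind each value is unknown.

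In mammals the methyl group is written co-transcriptionally by a complex built around METTL3 and METTL14, with WTAP, VIRMA, ZC3H13 and RBM15 as further subunits, and it is read by YTH-domain proteins that affect the splicing, translation and decay of the marked messenger. The mark lies mainly in a short consensus sequence centred on the adenosine, and it is found most often in long internal exons and around stop codons. The epididymal duct receives sperm from the testis, matures them in the caput and corpus and stores them in the cauda, and its epithelium is known for region-specific gene expression. The scores below describe how the authors' predictor ranked each adenosine, not how much of it was methylated. They chose the positions, and their values are therefore a description without a test.

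The highest score of a position was the same in every region, with 0 of 97619 positions listed in more than 1 region differing. The score therefore carried no difference between caput, corpus and cauda, and only the presence of a position in a list varied. Of 2720 positions with a very high score in any list, 58.7% were in all 3 lists (56.9 to 60.5%), 495 were in 2 lists and 628 in a single list. Among the lower scoring positions 45.6% were in all 3 lists, so a very high score went with listing in every region. The 1597 positions had a median combined score of 0.702, with quartiles of 0.687 and 0.73 and a highest value of 0.896. A score of at least 0.75 was reached by 231 of them, at least 0.8 by 61 and at least 0.85 by 20. The combined score equalled 0.6 times the deposited binary score plus 0.4 times the spectrum score to within 0.0008. The median binary score was 0.781 and the median spectrum score 0.604, beside 0.416 and 0.469 for the other positions in all regions; both components entered the choice, so nothing is read from the gap. At the lowest score of the class stood 42 positions, among them positions in ZNF639, FRMD6 and YLPM1, and 34 stood at 0.675 just outside it, among them positions in FAM162A, Eif4g1 and PLEKHO2.

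The very high score positions fell mostly in genes on the plus strand. A position was given to a gene where it lay in the span of a site of that gene in the 3 comparison tables. In this way 1549 of the 1597 lay in exactly 1 gene, 27 in none and 21 in 2 or more. Of the 1549, 1382 lay in plus-strand genes, which is 89.2% (87.6 to 90.7%), against 64.4% of the other positions in 1 gene (64.1 to 64.8%). Expressed the other way, 3.34% of the 41347 positions in plus-strand genes had a very high score, and 0.752% of the 22213 in minus-strand genes did. The share in plus-strand genes rose with each score class, from 63.3% of positions not classed as m6A through 67.2%, 68.3% and 73.7% in the low, moderate and high classes to 89.2% in the very high class. A higher share of very high positions in plus-strand genes than in minus-strand genes was found on 30 of 31 chromosomes. The exception was Y, with 1 very high position on each strand.

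**Figure D1:**
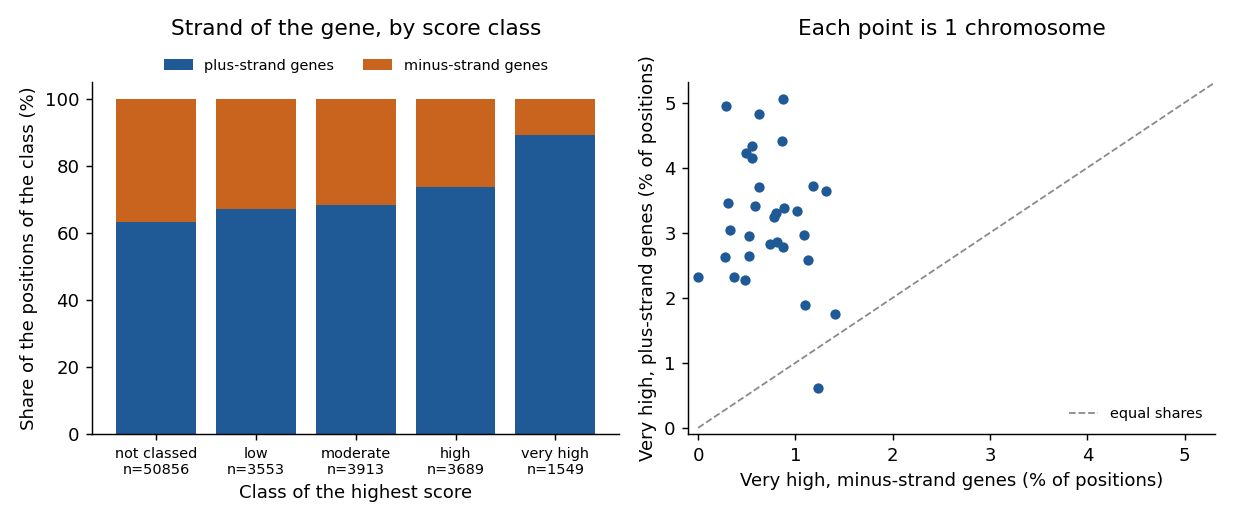
The left panel plots, for each score class (x axis, with the number of positions in exactly 1 gene), the share of positions in plus-strand and in minus-strand genes (y axis, percent). The right panel plots the percentage of positions with a very high score in plus-strand genes (y axis) against that in minus-strand genes (x axis), 1 point per chromosome; 30 of 31 points lie above the dashed line of equal shares.

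The m6A sites themselves were shared evenly between the strands, with 7006 plus-strand and 7055 minus-strand sites in the authors' deposited table of corpus over caput. Unspliced sites of that table had the same median length of 249 bases on both strands, yet held 21.4 candidates of any list per 1000 bases on the plus strand and 13.1 on the minus strand. For very high score candidates of any list the densities were 0.833 and 0.132 per 1000 bases. The lists name no strand. In 115 pairs of overlapping peaks whose genes lie on opposite strands, counted over the 3 lists, both peaks listed the same positions in the shared stretch in 115 of 115 pairs. A base of the genome cannot be an adenosine in transcripts of both strands, so each of these positions is no adenosine of the transcript in at least 1 of the 2 genes. These pairs held 421 distinct positions, 7 of them with a very high score. Whether the prediction read the transcribed strand in minus-strand genes was not tested, since no genome sequence was used here. Gene counts are therefore split by strand below where the lists allow it, and a minus-strand gene with few very high score positions cannot be told apart from one whose adenosines were not scored.

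The 1549 positions lay in 925 of the 5835 genes with at least 1 position listed in all regions, or 15.9% (14.9 to 16.8%). By strand these were 785 of 3022 plus-strand genes, or 26%, and 140 of 2813 minus-strand genes, or 4.98%. A single very high position was held by 613 genes, 2 by 170, 3 by 74 and 4 by 29. The 39 genes with 5 or more were all on the plus strand and held 258 positions, 16.7% of the 1549. Genes with a very high position also had more candidates in all, with a median of 16 against 6 in genes without one. The share of genes with a very high position rose from 3.78% where a gene had 1 to 5 candidates to 59.4% where it had 41 or more. Per candidate the increase was smaller, from 1.42% to 3.10%. These comparisons by number of candidates pool the strands, and plus-strand genes had a median of 9 candidates against 5 in minus-strand genes. The part of the strand in them was not tested.

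The 12 genes named for most very high score positions all lie on the plus strand. They were taken among genes with a symbol, ties being settled by the higher top score. SETD5 and Rabep1, and 2 genes without a symbol, held 7 positions like the last 4 of the 12 but had lower top scores. NUFIP2, which encodes an RNA-binding partner of the fragile X protein, held 12 among its 47 candidates. They spanned 1372 bases at chr19:48330577-48331948 (1-based positions as in the deposited files, for which the sources used here name no genome build), and 10 of the 12 had another within 100 bases. NSD1, a histone H3 lysine 36 methyltransferase, also held 12, but among 127 candidates and over 77765 bases at chr8:41804512-41882276, a stretch that includes introns. The 2 genes thus reached the same number at different densities, 25.5% of candidates in NUFIP2 and 9.45% in NSD1.

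RBM12B, an RNA-binding protein gene, held 10 of 43 candidates over 1471 bases at chr18:62892042-62893512. Its scores were even and modest, between 0.679 and 0.736. ZNF800, a zinc finger protein gene, held 9 of 43 over 956 bases at chr4:31019890-31020845, with scores up to 0.867. CDK13, a kinase of the RNA polymerase II tail, held 9 of 58 over 1863 bases at chr4:42727148-42729010. NFE2L1, a transcription factor of proteasome genes, held 8 of 47. The mismatch repair gene MSH6 held 8 of 38, and PCF11, a factor of transcript cleavage and termination, held 8 of 66. G3BP2, a stress granule protein gene, held 7 of 31 within 502 bases, the shortest stretch of the 12 named genes. SUCO, a membrane protein gene, held 7 of 51, MGAT2, an enzyme of N-glycan branching, 7 of 31, and HIVEP2, a zinc finger transcription factor, 7 of 65. Among these 12 genes the very high share of candidates ran from 9.45% in NSD1 to 25.5% in NUFIP2.

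The highest single scores were in other genes for the most part. Ankrd17, an ankyrin repeat protein gene, had the highest, 0.896, at position 32903491 of chromosome 6, with no other very high position within 100 bases. ARF6, a small GTPase of endocytic traffic, had the next 2, scores of 0.894 and 0.892 at positions 28986371 and 28986377 of chromosome 11. Phf12, a subunit of histone deacetylase complexes, had 0.882 and the RNA-binding gene MATR3 0.878. The telomere protein gene TERF2 had 0.877 and 0.876 at positions 9867634 and 9867623 of chromosome 20, MAZ 0.874, CXXC5 0.87 and ZNF800 0.867. These 10 positions were all in plus-strand genes, and ZNF800 was the only gene that was also among the 12 with most positions. In minus-strand genes the highest score was 0.76, in the ubiquitin ligase gene Huwe1, and 1 position reached 0.75 against 221 in plus-strand genes. The minus-strand gene with most very high positions was Gon4l, with 4 among 42 candidates, followed by ZNF639, ZNF572 and AGGF1 with 3 each.

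Many candidates did not ensure a very high one. PCM1, a centriolar satellite protein gene, had 74 candidates listed in all regions and a highest score of 0.624. Slk, a kinase gene, had 69 and a highest score of 0.669, KIDINS220 had 68 and 0.66, and the early endosome gene EEA1 had 65 and 0.666. These 4 are plus-strand genes. On the minus strand GOLGB1 had 83 candidates and RANBP2 80, with highest scores of 0.635 and 0.646.

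Very high score positions often had another nearby. Of the 1597, 36.9% had another within 100 bases (34.6 to 39.3%), whereas 7.61% of the other positions in all regions had a very high one that near (7.41 to 7.82%). Among all neighbours within 100 bases, 12.5% were themselves very high around a very high position and 3.14% around another position, which takes into account that very high positions had more neighbours of any score, 4.34 on average against 3.01. The share was highest at the shortest distances. It was 17.8% at 1 to 10 bases, 16.0% at 11 to 20, 14.6% at 21 to 50, 8.39% at 51 to 100 and 6.72% at 501 to 1000 bases, while around the other positions it stayed between 2.77% and 3.22%. The excess within 50 bases came on top of a wider one that reached beyond 500 bases. Within plus-strand genes 39.6% had another within 100 bases, and 13.3% of neighbours were very high against 3.84% around other positions. Within minus-strand genes these values were 16.8%, 5.77% and 1.17%, so on each strand very high positions were more frequent around other very high ones, although most neighbours were not very high. Neighbouring positions share sequence and peak and are not independent, and the intervals cover counting error only.

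**Figure D2:**
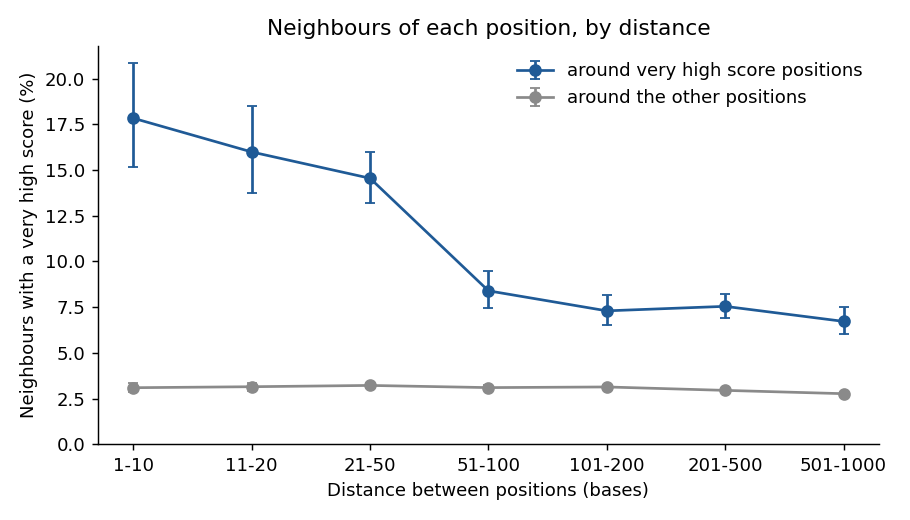
Share of neighbouring positions that had a very high score (y axis, percent) by distance in bases (x axis), around the 1597 very high score positions and around the other positions listed in all regions. Bars are 95% Wilson intervals; the share falls from 17.8% at 1 to 10 bases to 6.72% at 501 to 1000 bases in the first group and stays near 3% in the second.

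Joined wherever the gap was at most 100 bases, the 1597 positions formed 1256 runs. Of these, 1007 were single positions, 182 were pairs, 49 held 3 and 18 held 4 or more. Runs of 2 or more had a median length of 36 bases, and the median gap inside runs was 27 bases. The smallest gap was 4 bases, as among all candidates. The longest run was 6 positions in 185 bases of CDK13, at chr4:42728826-42729010. Runs of 5 lay in G3BP2 within 69 bases, MSH6 within 78, TERF2 within 149, PCF11 within 168 and SUCO within 187. Of the 18 runs of at least 4 positions, 1 lay in a gene without a symbol, and the others included ARF6, ATP2B1, MATR3, SETD5 and TNRC6B.

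The share of peaks that held a very high position was alike in the 3 regions. Of the peaks with a position listed everywhere it was 1083 of 9377 caput peaks (11.5%), 1078 of 9377 corpus peaks (11.5%) and 1076 of 9304 cauda peaks (11.6%). In caput 773 of these peaks held 1, 191 held 2 and 119 held 3 or more. The numbers are nearly equal between regions because listing in all regions was part of the choice. Unspliced caput peaks with a very high position were longer than those without, with median lengths of 397 and 299 bases, and held a median of 9 candidates against 4. The caput peaks with most were in RBM12B with 10, NUFIP2 and CDK13 with 9 each, ZNF800 with 8, and MSH6 and MGAT2 with 7 each. They were arranged differently, all 6 in plus-strand genes. In RBM12B the 10 were spread over 1471 bases of a 1723-base peak, whereas in MSH6 all 7 fell within 414 bases. In CDK13, 6 of the 9 crowded into the 3′ end of the listed stretch.

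**Figure D3:**
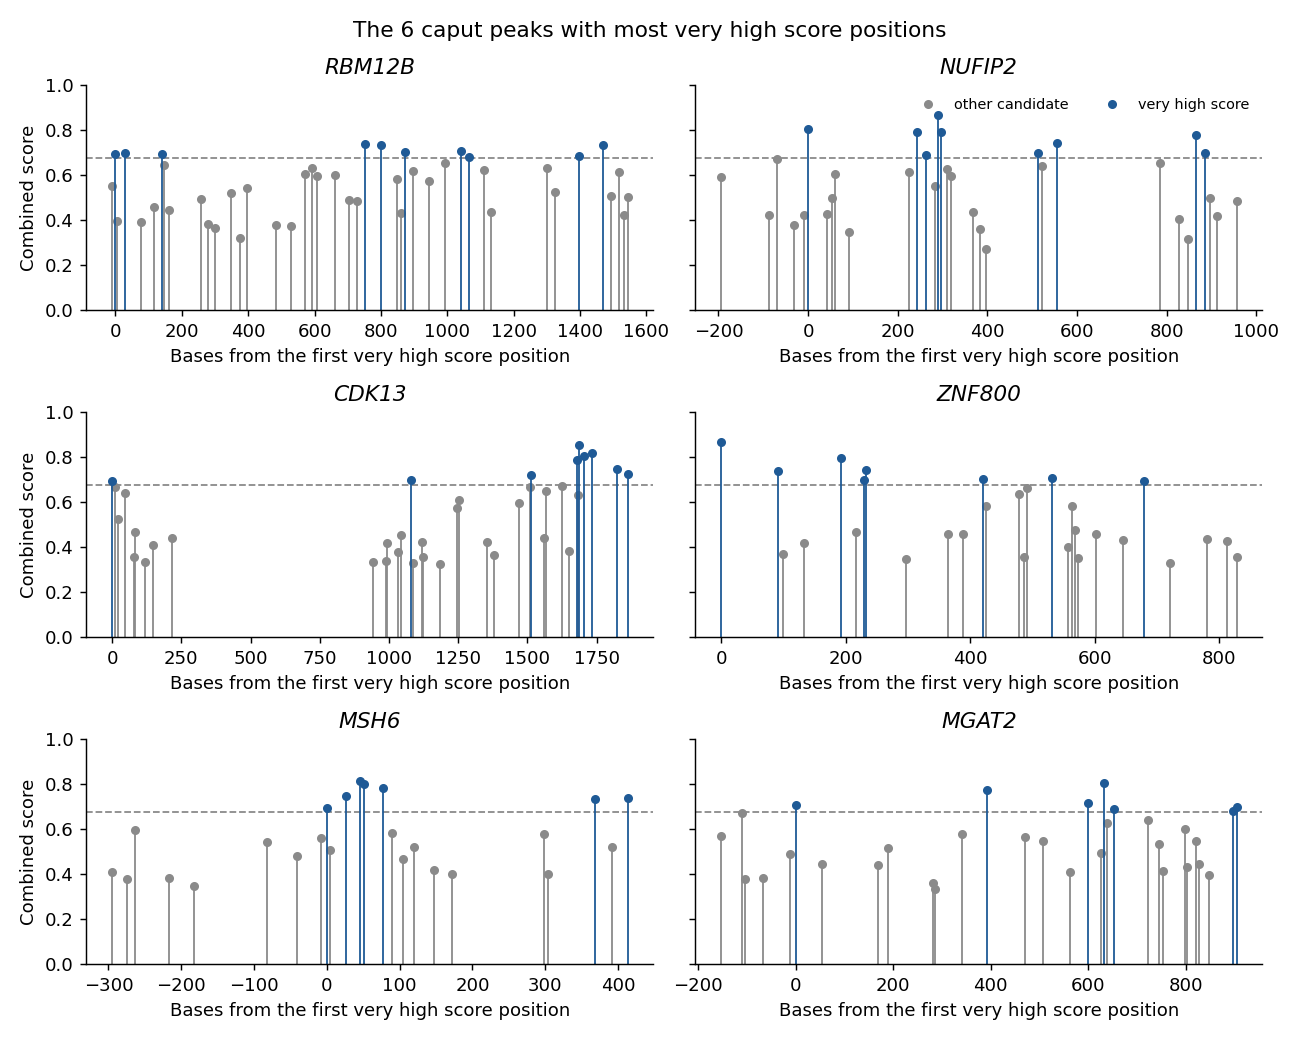
Combined score (y axis) of each candidate listed in all regions against its distance in bases from the first very high score position (x axis, in the direction of transcription), for the 6 caput peaks with most very high score positions; candidates farther than 300 bases from the outermost very high positions are not drawn. The dashed line is the lowest score of the very high class; in RBM12B the 10 blue points lie just above it, and in CDK13 the last 6 lie together.

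Relative to peak centres the positions were only slightly off the other candidates. Distance from the centre was expressed as a percentage of the peak length, 0 at the centre and 50 at an edge, and was read in unspliced peaks because a spliced span includes introns. The very high positions had medians of 21.2, 22.8 and 21.1 in caput, corpus and cauda, and the other positions of the same peaks had 23.9, 23.2 and 24.0. The outer 10% of the peak length on either side held 12.3%, 13.4% and 12.1% of the very high positions and 16.7%, 17.2% and 15.7% of the others. In plus-strand genes alone the medians were 21, 21.8 and 20.7 against 23.8, 23.2 and 24.2. In minus-strand genes, with 39, 37 and 31 very high positions, the medians were 22.3, 32.9 and 25.9 against 24.8, 23.4 and 23.2, so the direction held there only in caput.

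Along their genes the very high positions were shifted towards the 3′ end. In the 3895 genes with at least 5 candidates, each gene's candidates were ranked in the direction of transcription and divided into 5 quintiles. The last 2 quintiles held 45.4% of 1500 very high positions (42.9 to 47.9%), 41.2% of high class positions and 39.5% of positions not classed as m6A (39.0 to 39.9%). The first quintile held 17.0%, 18.2% and 20.2%. The shift was of similar size on each strand, with 45.5% against 39.7% for all other positions in plus-strand genes and 44.8% against 39.7% in minus-strand genes, although the interval of the latter, 37.2 to 52.7% for 154 positions, included the background. The quintiles order candidates within sites and are not distances along the transcript, and where stop codons lie was not analysed here.

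**Figure D4:**
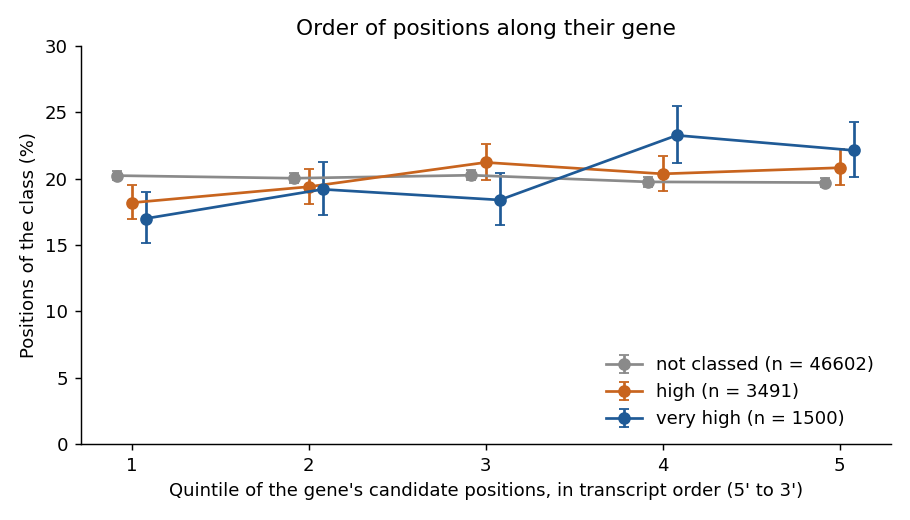
Share of positions of a score class (y axis, percent) in each quintile of their gene's candidates, ordered 5′ to 3′ (x axis), for genes with at least 5 candidates. Bars are 95% Wilson intervals; very high score positions lie at 17.0% in the first quintile and at 23.3% and 22.1% in the last 2, while positions not classed as m6A stay near 20% throughout.

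Genes of the m6A machinery held very high score positions themselves. Gene lists were counted by the gene entries of the files, so a symbol with several entries counts several times. Of 11 entries of the methyltransferase list with a position in all regions, 5 held very high ones, all among the 8 on the plus strand. That was 62.5%, against 26% of all plus-strand genes, and the 11 entries had a median of 15 candidates. Per candidate, 5.26% of the positions in its plus-strand genes were very high, against 3.34% over all plus-strand genes. The list goes beyond the subunits named above and includes METTL16 and PCIF1. Virma, the scaffold subunit, held 5 of 38 candidates and ZC3H13, a zinc finger subunit, 5 of 106. Rbm15, an RNA-binding subunit, held 2, and METTL14 held 1. Wtap held 1 in its plus-strand entry on chromosome 24, while its minus-strand entries on chromosome 10 held none. Among 13 entries of readers, 3 held any, all among the 6 on the plus strand (50.0%), and the median was 14 candidates. Per candidate, 3.1% of the positions in the plus-strand reader genes were very high, which is below the 3.34% of all plus-strand genes. YTHDF2, a cytoplasmic reader that promotes decay, held 3 of 20, and 2 entries named PRRC2A, on chromosomes 14 and 24, held 2 and 1, a pair in which reads of related copies may not be told apart. Of the 2 entries of erasers the minus-strand gene FTO held 1 of 37, with a score of 0.723. Its site has 249 bases in the authors' deposited table of cauda over caput, in a span that covers all 37 candidates. The very high position may thus lie in an intron of that span.

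Chromatin genes held very high positions in several members. Of 52 entries of chromatin writers and remodelers 17 held a very high position, 12 of 23 on the plus strand and 5 of 29 on the minus strand. Besides NSD1 they included Arid1a, a subunit of the SWI/SNF remodeler, with 6, the cohesin loader NIPBL with 5 and the histone demethylase KDM3B with 4. Against 26% of all plus-strand genes, the 12 of 23 came to 52.2%, a comparison of counts in a list chosen with earlier results of these data known, whose entries also had many candidates, a median of 19. Per candidate, 4.11% of the positions in its plus-strand genes were very high, against 3.34% over all plus-strand genes. Among ubiquitin ligases and deubiquitinases 7 of 26 entries held any, 3 of 13 on the plus strand (23.1%, against 26% of all plus-strand genes) and 4 of 13 on the minus strand (against 4.98% of all minus-strand genes). Per candidate the order on the plus strand was reversed, with 3.86% of the positions in the plus-strand genes of this list against 3.34%. USP47 held 6 and Trip12 3. RNA-binding and splicing factors had 7 of 27, 6 of 18 on the plus strand (33.3%, and 4.28% of candidates) and 1 of 9 on the minus strand. The microRNA silencing genes TNRC6B and TNRC6C held 6 and 3, while Tnrc6a, on the minus strand with 29 candidates, held none. The Wnt, TGF-beta and Notch list had 6 of 24, 5 of 10 on the plus strand (50.0%) and 1 of 14 on the minus strand, with MAML3, a Notch coactivator, at 5, and Axin1, a scaffold of beta-catenin destruction, and the activin receptor ACVR2A at 3 each. Its plus-strand genes had 8.84% of their positions in the very high class, 13 of 147. In the same list MAML1 and AXIN2 on the plus strand and MAML2 on the minus strand held none.

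Lists tied to the duct gave mixed counts. Of 24 entries of transcription factors of the epididymis and androgen response 4 held a very high position, all among the 11 on the plus strand (36.4%, against 26% of all plus-strand genes), and KLF9, EHF and Nfix held 1 each. Per candidate the order was reversed, with 2.38% of the positions in its plus-strand genes against 3.34% over all plus-strand genes. The list of 35 principal cell and secretory genes, the products that the main epithelial cells release onto sperm, had no gene with a position in all regions, and so none could hold a very high one. Of the 7 ion and water transport entries none held one, and none was held by the 4 basal cell, 2 multiciliated cell, 1 clear cell and 5 macrophage and lymphocyte entries. These lists are too small to set against the 15.9% of all genes, and the ion transport entries had a median of 4 candidates. Of 20 junction and polarity entries 2 held any, PKP4 with 3 and CTNNA1 with 1, both among the 6 on the plus strand (33.3%, but 2.0% of candidates). In the duct wall, 1 of 9 smooth muscle entries held any, SYNPO2 with 3, among the 5 on the plus strand. Of 12 fibroblast and matrix entries 2 held any, COL6A1 and FBN1 with 1 each, both among the 8 on the plus strand. Of 8 endothelium entries 1 held any, TEK with 3, among the 4 on the plus strand. Each of these plus-strand shares lay below the 26% of all plus-strand genes. Per candidate, the plus-strand values were 3.45%, 1.61% and 6.12% in the same order, against 3.34% over all plus-strand genes. Odf2, which encodes a protein of the sperm tail that is also a centrosome component in other cells, was the only entry of the sperm list with a position in all regions and held 1. In growth factor signalling 2 of 20 entries held any, both among the 9 on the plus strand (22.2%, but 4.04% of candidates), and NF1 held 2. The immediate early genes MYC, KLF2 and KLF10 held 1 each. They were 3 of 9 plus-strand entries (33.3%, but 2.59% of candidates), while none of the 9 on the minus strand held one. The tissue label could not be checked against marker expression, since the deposited expression columns carry codes that no label explains.

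By the ontology terms in the deposited annotation, chosen after their values were seen, the share of plus-strand genes with a very high position varied around the 26% of all plus-strand genes. For RNA polymerase II transcription factors the share was 37.5% of 184, for transcription coactivators 39.1% of 46, for protein ubiquitination 40.4% of 57 and for early endosome 43.5% of 46. Among pathways it was 47.7% of 44 for Ras signalling and 48.0% of 25 for TGF-beta signalling. Nearer to the background were nucleus with 28.9% of 912, chromatin binding with 28.6% of 70 and RNA binding with 30.2% of 235. Lower shares were found for cilium assembly with 10.3% of 39, mitochondrial inner membrane with 12.2% of 49, calcium ion binding with 13.2% of 76, actin filament binding with 13.3% of 30, ubiquitin mediated proteolysis with 14.7% of 34 and spliceosome with 17.1% of 41. Genes with a ZNF or ZFP symbol held them in 42 of 110 on the plus strand (38.2%, 29.6 to 47.5%) and in 12 of 112 on the minus strand (10.7%). Per candidate, 4.0% of the 1800 positions in these plus-strand genes were very high (3.19 to 5.01%). That interval includes the 3.34% over all plus-strand genes. These are counts without a test, and genes of different terms differ in how many candidates they have.

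Whether sites that hold very high score positions differed between regions was read from the authors' own comparisons. The sources used here do not state whether the fold ratio is relative to input. For a site called higher or lower, a difference in methylation therefore cannot be told apart from one in transcript level. The 3 tables share regions in pairs, so their calls are not independent of each other. A site counts as called where its adjusted p was under 0.05. In the authors' deposited table of corpus over caput 19 of 907 sites with a very high position were called, 6 higher and 13 lower in corpus, which is 2.09%, against 2.98% of all sites. For cauda over caput the authors' deposited table called 17 of 858, 13 higher and 4 lower in cauda, 1.98% against 2.27% of all sites. For cauda over corpus the authors' deposited table called 20 of 904, 17 higher and 3 lower in cauda, 2.21% against 1.96% of all sites. The shares called lay near the background in each table, within the 95% Wilson intervals of 1.35 to 3.25%, 1.24 to 3.15% and 1.44 to 3.39%. Sites with other positions listed in all regions were called less often, 1.58%, 1.65% and 1.48% in the authors' deposited tables. These values also lay inside the intervals, and the difference was not tested. Without adjustment, 138, 140 and 166 of these sites had a p under 0.05 in the authors' deposited tables, beside 16.4%, 17.2% and 16.4% of the whole set. At an adjusted p under 0.01 they gave 5, 7 and 4, beside 1%, 0.752% and 0.64%, and with a 2-fold difference as well 0, 0 and 0, beside 0.718%, 0.448% and 0.338%. By direction the backgrounds over all sites were 1.12% higher and 1.86% lower in corpus over caput, 1.41% and 0.861% in cauda over caput, and 1.24% and 0.719% in cauda over corpus, in the authors' deposited tables.

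The median log2 fold of sites with a very high position was -0.04 in corpus over caput, 0.04 in cauda over caput and 0.06 in cauda over corpus, beside -0.02, 0.04 and 0.05 over all sites of the authors' deposited tables. None of these sites reached 2-fold in any table, called or not, while 2.67%, 2.45% and 2.37% of the whole set did in the authors' deposited tables. Sites with other positions listed in all regions were also narrow, with 0.283%, 0.263% and 0.212% of them reaching 2-fold in the authors' deposited tables. A site had to be found in every region to hold such a position, and sites with one were also longer, with a median of 500 bases in corpus over caput against 251 bases over the whole of the authors' deposited table. The part of either in the narrow range was not tested. By strand the calls were 13 of 779 plus-strand and 6 of 128 minus-strand sites in corpus over caput, 14 of 736 and 3 of 122 in cauda over caput, and 20 of 768 and 0 of 136 in cauda over corpus, in the authors' deposited tables. Over all sites of a strand the authors' deposited tables called 3.05%, 2.15% and 1.90% on the plus strand and 2.91%, 2.40% and 2.03% on the minus strand, in the same order.

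**Figure D5:**
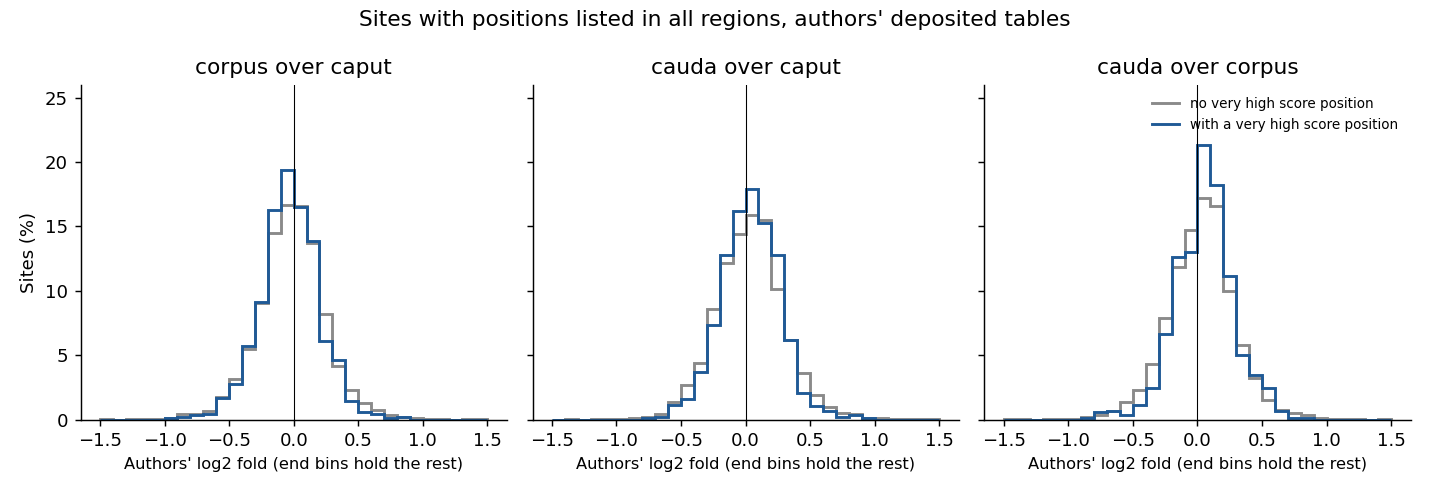
Share of sites (y axis, percent) by the authors' log2 fold (x axis, bins of 0.1), for sites with a very high score position and for sites with other positions listed in all regions, in the 3 deposited comparison tables. Both outlines centre near 0, and no site with a very high score position lies beyond 1 on either side.

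ZMAT1, a zinc finger gene on the X chromosome, had the lowest adjusted p of these sites. Its site of 1730 bases with 2 very high positions was higher in cauda than in caput by 0.33 on the log2 scale in the authors' deposited table (adjusted p = 5.13e-07). Against corpus, the overlapping site was higher in cauda by 0.42 in the authors' deposited table (adjusted p = 5.37e-06). IL20RA, a cytokine receptor gene, was likewise higher in cauda against both other regions, by 0.34 and 0.27 in the authors' deposited tables of cauda over caput (adjusted p = 0.00603) and cauda over corpus (adjusted p = 0.00513). Further sites were higher in cauda than in caput in the authors' deposited table, by 0.95 in APOL3 and 0.65 in IFIT3, both interferon-induced genes in other tissues, by 0.88 in METTL21A, a protein lysine methyltransferase gene, and by 0.37 in PRICKLE1, a planar polarity gene. APOL3 was the furthest from 0 of the sites called.

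Sites were lower in cauda than in caput for ARAP2 by -0.72, SSC5D by -0.50, PUS3 by -0.41 and MB21D2 by -0.33 on the log2 scale in the authors' deposited table. In corpus the PUS3 site, in a gene of pseudouridine synthesis on tRNA, was also lower than in caput, by -0.58 in the authors' deposited table (adjusted p = 0.0204). The ARAP2 site was lower there too, by -0.56 in the authors' deposited table (adjusted p = 0.0316). Both genes were thus highest in caput in the comparisons called.

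In corpus over caput the lowest adjusted p was that of PCDHGC5, -0.58 in the authors' deposited table (adjusted p = 0.000724), and in cauda over corpus the same site was called in the other direction, 0.47 in the authors' deposited table (adjusted p = 0.0234). PCDHGC5 belongs to the gamma protocadherin cluster, whose transcripts share their 3′ exons, so reads may not be assignable to 1 of them. FLRT3, an adhesion gene, was lower in corpus by -0.78, DENND2B by -0.29 and LRRFIP1 by -0.36 in the authors' deposited table. Higher in corpus were Znf608 by 0.31, FAM120A by 0.35, ZZZ3, a histone acetyltransferase subunit with 3 very high positions, by 0.45, and ZNF572 by 0.36 in the authors' deposited table.

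Of the 12 genes named for most very high positions, 3 had a called site. NSD1 was higher in cauda than in corpus at the site with 6 of its positions, by 0.27 in the authors' deposited table (adjusted p = 0.00871). In the same table its other 2 sites with very high positions were at -0.14 and -0.28 without passing the threshold, and the difference between its sites was not tested. MSH6 was higher in cauda than in corpus by 0.17 at the site with 7 positions in the authors' deposited table (adjusted p = 0.0479). HIVEP2 was called in corpus over caput with a log2 value of only 0.0088 by the authors' deposited table (adjusted p = 0.0479), a call on almost no difference in level. ZNF131 at 0.04 in corpus over caput and ZNF445 at 0.05 in cauda over corpus were further calls of that kind in the authors' deposited tables, and the sources used here do not name the test that made them. Higher in cauda than in corpus were also SMARCA2 by 0.20, and lower were CRYBG3 by -0.62, GBP2 by -0.64 and CENPC by -0.61 in the authors' deposited table.

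Sites of CDK13, RBM12B and ZNF800, with 9 or 10 positions each, did not pass the threshold in the authors' deposited tables. The CDK13 site with all 9 positions stood at -0.04, 0.03 and 0.07 in the authors' deposited tables for corpus over caput, for cauda over caput and for cauda over corpus. The RBM12B site with all 10 stood at -0.21, -0.08 and 0.11 in the same order in the authors' deposited tables, and the ZNF800 site with 9 at 0.30, 0.22 and 0.02. None of these passed the threshold, their adjusted p in the authors' deposited tables lying between 0.191 and 0.970. In the methyltransferase complex, 2 Virma positions lay in a site of 199 bases that was at 0.87 in cauda over caput of the authors' deposited table without passing (adjusted p = 0.0676). RIOK1 was called lower in corpus at -0.85 in the authors' deposited table (adjusted p = 0.0209), but its site has 347 bases in a span that covers 132 candidates on chromosome 24, so its 2 very high positions may lie in the introns of that span.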

How the data were processed

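Each region has a list of candidate adenosines with the peak span, 2 component scores, a combined score between 0 and 1 and a class, as deposited; the score is a prediction by the authors, per the file headers. Each pair of regions has a table of sites with a p-value by the authors, raw and adjusted, their fold ratio and its log2, per the file headers. The submitters' processing notes list HISAT2, Trimmomatic and deepTools, with neither role nor version. The sources used here name no peak caller, site predictor, differential test or genome build, and the labels do not say whether libraries were pooled for peak calling. The 9 sample columns of the expression table match no label and were not used; gene symbols, ontology terms and pathways came from that table.

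Distinct positions in all 3 lists were kept with their highest score; 26 of the 1597 had several scores over repeated lines. Positions were given to genes by site spans (start exclusive, end inclusive), so a spliced span covers its introns. An unspliced site is one whose length equals its span. Intervals are 95% Wilson intervals and cover counting error only. No test was run on the positions, and differences between regions rest on the authors' adjusted p under 0.05. The scripts for neighbours, gene assignment and site counts were tested on simulated data. Python 3.11.15, pandas 2.3.3, numpy 2.4.6, scipy 1.17.1 and intervaltree 3.1.0 were used. The positions, the 21 gene lists (544 entries) and the 27 ontology terms were chosen with earlier results of these data known, the terms after their counts were seen. Named genes are the 12 with most positions, the 10 highest scores, the 6 peaks with most positions, up to 5 called sites in each direction per comparison by adjusted p, up to 4 genes per list, and the 3 positions on each side of the threshold. Genes named for minus-strand scores, for many candidates without a very high one, and for calls on a small fold were chosen after their values were seen. A few genes covered by these rules are not reported here.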

Additional observations from a re-analysis of the deposited data

How the results depend on the processing

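Of 44 alternative values, 19 stayed within the margin of the reported one and 25 moved beyond it. That margin was wide for counts. Positions listed in at least 2 lists, 2092 against 1597, stayed within it. So did the 27 sites called with those positions in the authors' deposited table of corpus over caput, against 19. With a score of at least 0.7 there were 856 positions in 527 genes, and with the lower edge of the next class, 0.62, 5402 positions. Unspliced peaks alone gave 520 genes, and minus-strand genes alone, an alternative chosen after seeing the data, 140. The share with another within 100 bases became 30.1% within 50 bases, 42.7% within 200 bases, and, chosen after seeing the data, 39.6% in plus-strand and 16.8% in minus-strand genes. The median distance from the peak centre was 32.4% of the span over all caput peaks and 21.2% in unspliced peaks. Called sites of the authors' deposited tables, for corpus over caput first, then for cauda over caput and last for cauda over corpus, numbered 138, 140 and 166 at an unadjusted p under 0.05 (16.4%, 17.2% and 16.4% of all sites), 5, 7 and 4 at an adjusted p under 0.01, 0, 0 and 0 with at least a 2-fold difference, 6, 8 and 8 in unspliced peaks, and 8, 9 and 9 with a score of at least 0.7. No paired analysis was possible because the tables carry no values per library, and no library could be left out for the same reason. Depth is unknown, the lists name no strand, and a position missing from a list can reflect a peak that was not called.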
